A study of Mus musculus with 4 samples.

Results

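The comparison set mouse embryonic fibroblasts (MEFs) cocultured with mesenchymal stem cells (MSCs) against MEFs cultured alone, both without QNZ, an inhibitor of NF-κB signalling. The members were the genes with an FPKM (fragments per kilobase of gene per 1000000 reads) of at least 1 in either of these 2 libraries, after gene IDs sharing a name were summed. They were 11119 of 21839 gene names, of which 9413 passed in both libraries, 1529 only through the cocultured MEFs and 177 only through the MEFs alone. The MEFs were wild type (WT) and came from C57BL/6 embryos of 13.5 days, and the MSCs came from mouse bone marrow. The MEFs grew on an insert with a 0.4 μm membrane for 48 h and were then harvested for total RNA, while the MSCs themselves were not sequenced here. The other 2 of the 4 libraries were the same cultures with QNZ, whose dose the labels and methods do not state, and they enter below as a second pair of values side by side. The study sequenced these cells to look for factors that fibroblasts secrete.

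Each condition had 1 library, so the spread between cultures is unknown, no difference could be tested, and coculture cannot be told apart from anything else that differed between the libraries. Reads assigned to genes totalled between 13153696 and 15778488 per library. A gene was called higher or lower in coculture at a difference of log2(FPKM + 1) of 1 or more. Values are given in the order MEFs alone, then cocultured MEFs. Ratios are of CPM (counts per 1000000 reads) in cocultured MEFs over MEFs alone, and their exact binomial 95% intervals cover counting error only. In bulk RNA, fewer cells of a type and less RNA per cell cannot be told apart. The strand setting of the read counting is not stated, so a gene that shares bases with another is uncertain. Of the 242 genes named by rule, 38 share bases with a gene on the other strand and 10 with a gene on their own strand. Among the genes named below, Tubb3, Tk1, Chaf1a, Fdft1, Psma2, Psmd13, Cct7, Acta1, mt-Nd4, mt-Nd6, mt-Co3, Ndufa4l2, Fam162a, Tpi1, Ptx3, Aspn, Ogn, Fgf7, Angptl6, Hoxa6, Hnrnpab, Ube2s, Eef1d, Mrps25, Cox4i1, Loxl3, Aldoa, Egln2, Ccnd1, Ccnd3, Top2b and Cxcl10 share bases with another gene. Tubulins, ribosomal proteins, class I MHC genes, proliferins, Eno1 and Ldha also have near-identical copies or pseudogenes, between which the counting could split reads.

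The cells carried the fibroblast markers fixed for the label. Of 12 markers, 10 were kept, with a summed FPKM of 2131 in MEFs alone and 2080 in cocultured MEFs. Few markers of macrophages, endothelium, epithelium, skeletal muscle or nerve were kept. Of 16 macrophage markers 3 were kept, with a sum over the whole list of 8.24 alone and 18.0 in coculture. Of the 16, 5 had 0 reads alone and 2 in coculture, the complement genes C1qa and C1qc. With QNZ, 5 alone and 7 in coculture had 0 reads. Bone marrow stromal cell markers, by contrast, had 12 of 16 kept, with a sum of 635 alone and 1242 in coculture. They are described below, and the part of MSC cells or RNA was not tested. Endothelial markers summed to 2.16 and 1.30, epithelial markers to 6.22 and 5.15, and skeletal muscle markers to 8.33 and 7.01. Neural markers summed to 55.9 alone and 23.8 in coculture, and to 17.1 and 10.9 with QNZ, nearly all of it from Tubb3, a tubulin gene and the only 1 of 10 kept, with 55.6 and 21.9. Genes on the Y chromosome summed to 5.12 alone and 25.3 in coculture, and the share of reads from mitochondrially encoded genes was 0.291% and 0.738%. The same sums with QNZ were 6.88 and 26.2 for the Y-linked genes, and the mitochondrial shares were 0.580% and 1.49%. The part of these differences in the results below was not tested.

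A first property of the comparison was its relation to gene length. Gene length here is, for nearly all genes, the union of exons, which can exceed any single transcript. As deposited, there were 2719 genes higher in coculture (24.5% of the genes kept) and 1252 genes lower in coculture (11.3%), with a median difference of 0.36 over all genes. Of the genes in the shortest of 10 equal groups by length, from 27 to 1782 bases, 8.54% were higher and 41.0% lower. In the longest, from 9919 to 41473 bases, 57.7% were higher and 0.270% lower. Spearman's correlation between the difference and gene length was 0.51 across genes, which are not independent replicates, and it was 0.50 in the pair with QNZ. The trend was removed by subtracting a smooth curve of the difference on the logarithm of gene length. On this length-adjusted scale 1295 genes were higher (11.6%) and 1249 lower (11.2%), around a median of 0.02. Scaling by the median of ratios gave 1386 higher and 2394 lower with a median of -0.10, and rescaling to transcripts per 1000000 (TPM) gave 5190 higher and 644 lower with a median of 0.90. On both the deposited and the length-adjusted scale, 1066 genes were higher and 760 lower. Of these, 757 and 537 also differed by at least 1 in the same direction with QNZ.

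**Figure D1:**
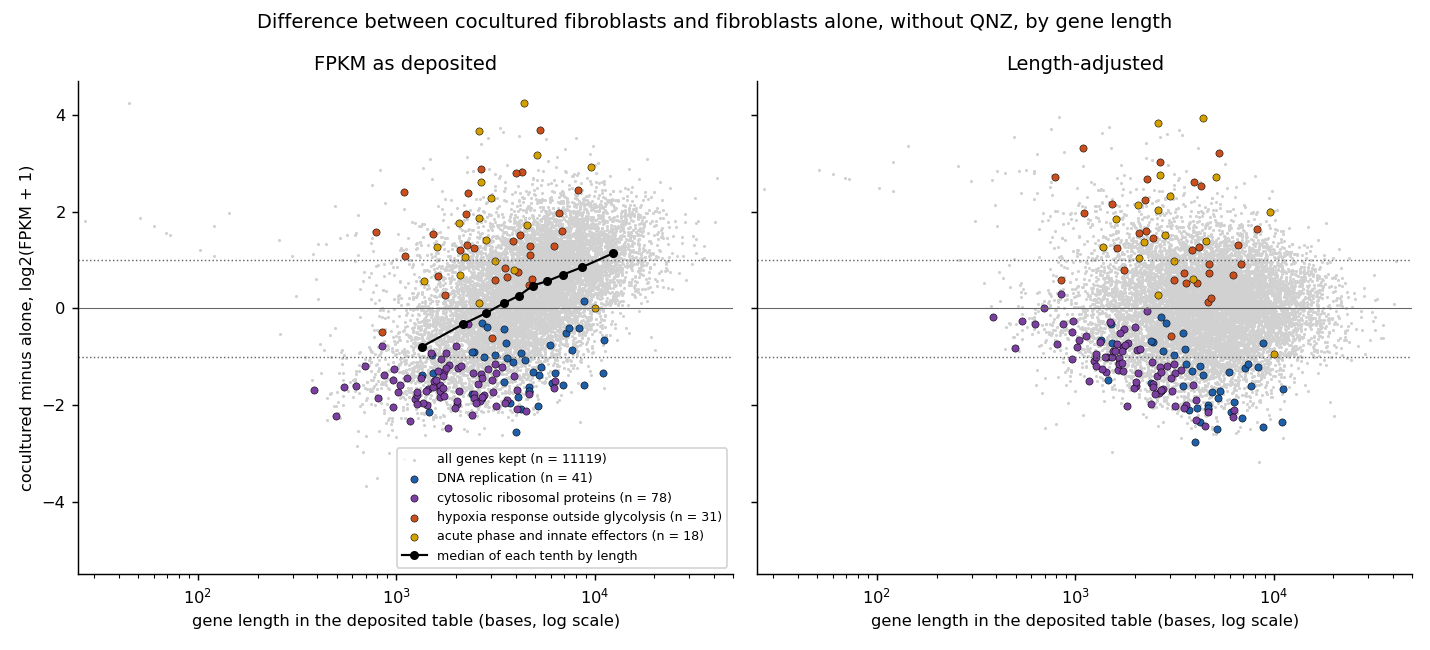
Difference of log2(FPKM + 1) between cocultured MEFs and MEFs alone (vertical axis) against gene length in bases on a log scale (horizontal axis), as deposited on the left and length-adjusted on the right; grey points are the 11119 genes kept, coloured points are members of 4 gene lists, and dotted lines mark differences of 1 and -1. As deposited, the medians of the 10 length groups (black) run from -0.79 to 1.14, and after adjustment the genes of DNA replication still lie below 0 and those of the hypoxia response mostly above it.

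Gene families were therefore read on both scales, and those whose length-adjusted median over the kept members was at least 0.3 above or below 0 are described here. DNA replication, cholesterol synthesis, the proteasome, tubulins, ribosomes and the respiratory chain were lower in coculture. Targets of the hypoxia response, acute phase and complement genes, small proteoglycans, antagonists of bone morphogenetic proteins (BMPs) and mitochondrially encoded genes were higher. Each count stands beside the shares over all genes given above, and the counts describe these libraries without a test. In the pair with QNZ, 14.1% of the same 11119 genes were higher and 8.84% lower, and the median difference was 0.18. All values of the pair with QNZ are as deposited, without length adjustment.

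**Figure D2:**
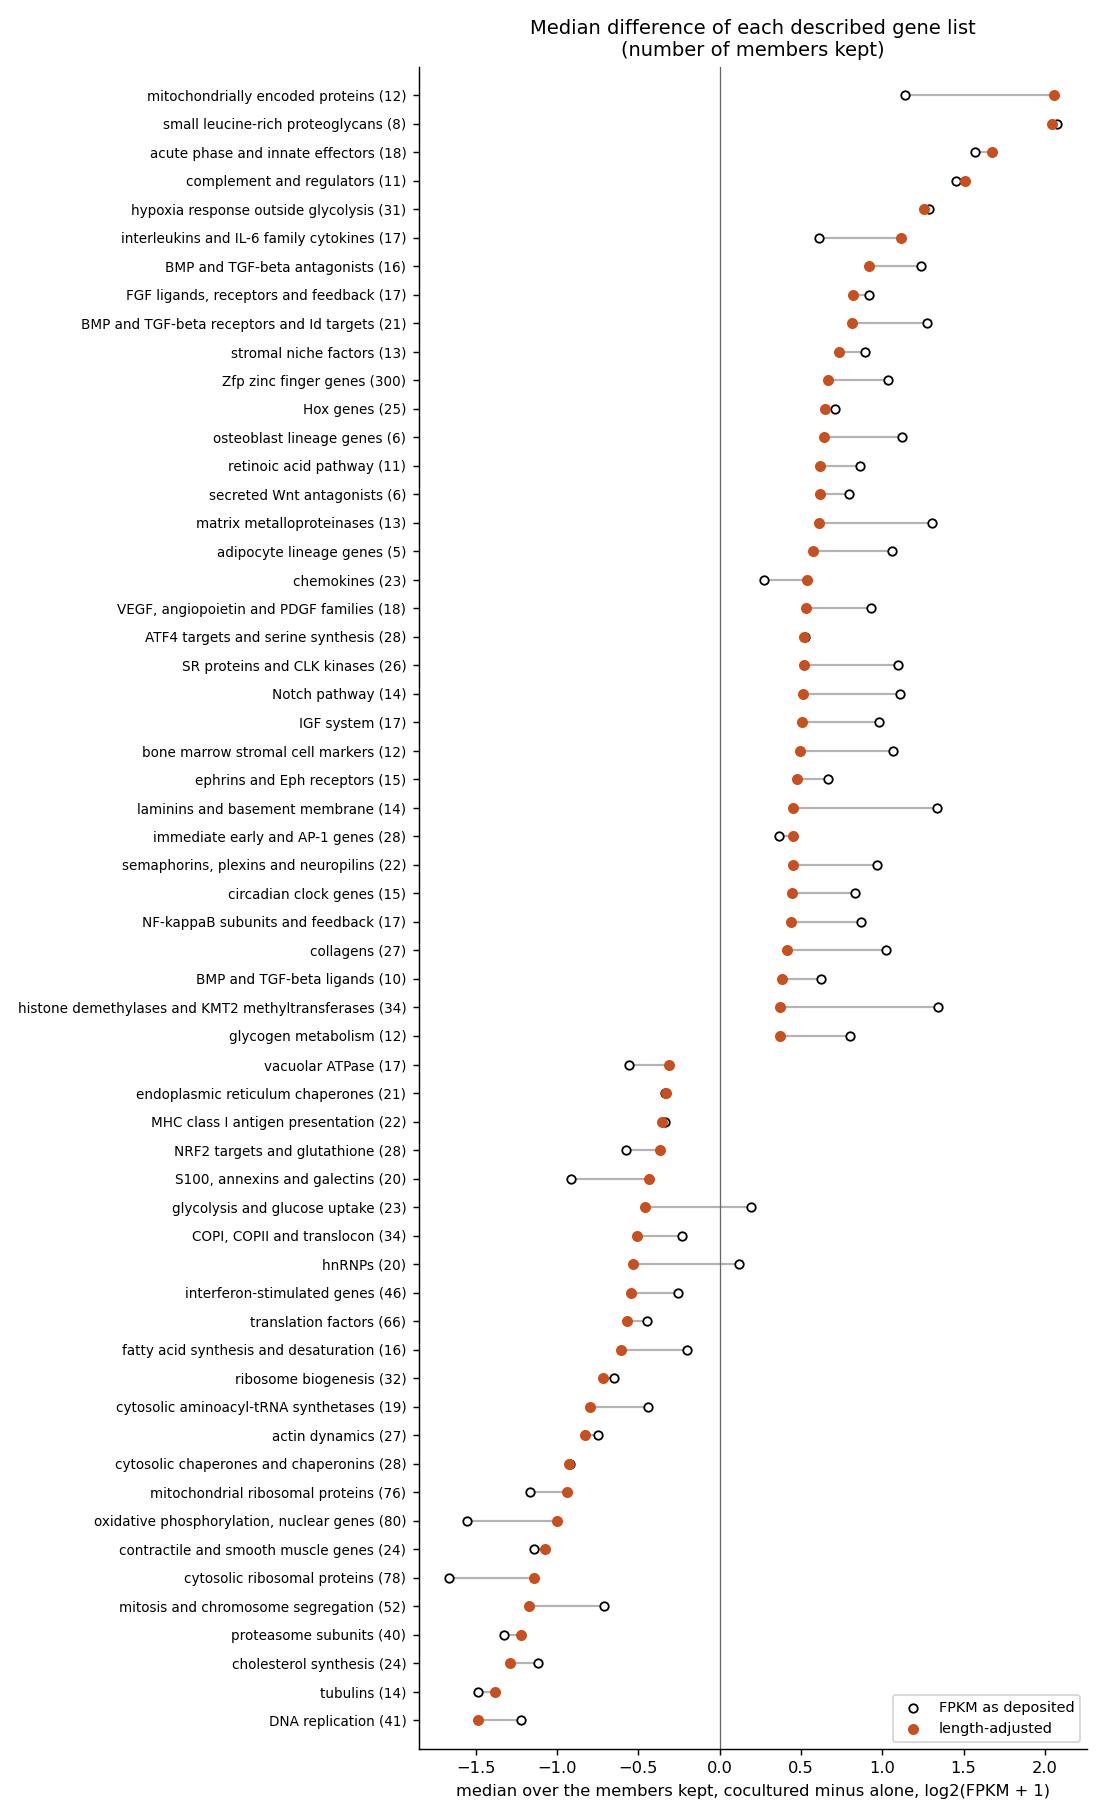
Median difference of log2(FPKM + 1), cocultured MEFs minus MEFs alone, for each of the 58 gene lists described (number of kept members in parentheses), as deposited (open circles) and length-adjusted (filled circles). Length-adjusted medians run from -1.49 for DNA replication to 2.06 for mitochondrially encoded proteins, and lists such as laminins, from 1.34 to 0.45, come much closer to 0 after adjustment.

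Cells copy their DNA with a helicase, the MCM complex, that opens the double helix, with polymerases and clamp loaders that follow it, and with enzymes that supply nucleotides. Genes of this machinery were lower in cocultured MEFs on both scales. Of 42 listed genes, 41 were kept, 37 of them through both libraries. As deposited 25 were lower and 0 higher, with a median of -1.22. After length adjustment 29 were lower and 0 higher, with a median of -1.49. In the pair with QNZ 34 were lower as deposited, with a median of -1.45. Mcm5, a helicase subunit, measured 29.4 FPKM in MEFs alone and 4.16 in cocultured MEFs, a ratio of 0.141 (0.123 to 0.162). With QNZ its FPKM was 25 and 3.14, so both cocultured libraries lay below both libraries of MEFs alone. The nucleotide enzymes Tk1 and Rrm1, thymidine kinase and the large subunit of ribonucleotide reductase, had length-adjusted differences of -2.49 and -2.36. Chaf1a, which loads histones on newly made DNA, had one of -2.45. Rrm1 and Chaf1a are 11012 and 8854 bases long over all exons, lengths at which few genes were lower. Their longest transcripts are 5475 and 7698 bases, and their ratios were 0.364 (0.341 to 0.389) and 0.252 (0.221 to 0.288). Pola1, a polymerase subunit, was the member above 0 as deposited, with 0.14, and had -0.72 after adjustment.

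Mitosis follows with another set of genes, for kinases, spindle motors and the chromosome passenger complex, many of which are switched on late in the cell cycle through a promoter element called CHR (cell cycle genes homology region). Of 56 listed genes 52 were kept, 47 of them through both libraries. As deposited 24 were lower and 1 higher, the condensin subunit gene Smc4, with a median of -0.71, and after length adjustment 30 were lower and 0 higher, with a median of -1.17. In the pair with QNZ 31 were lower as deposited, with a median of -1.26. Cdk1, the kinase that drives entry into mitosis, measured 23 FPKM alone and 4.29 in coculture, giving a ratio of 0.186 (0.165 to 0.210), and 18.7 and 3.45 with QNZ. For Plk1, a mitotic kinase, the values were 29.6 and 4.40 FPKM, and 16.3 and 2.21 with QNZ. The chromosome motor Kif22 had 12.8 and 2.32 FPKM and the survivin gene Birc5 had 14.4 and 3.06. In each of these 4 genes both cocultured libraries were below both libraries of MEFs alone.

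Promoters of mitosis genes were set beside those of replication genes, since both families were lower in coculture. Promoters here are the 300 bases from 250 before to 50 after a gene's start in RefSeq (assembly GRCm38.p6), which were found for 8856 of the kept genes. The element TTTGAA or TTCGAA, on either strand, was present in 35 of 44 mitosis promoters (79.5%), in 6 of 32 replication promoters (18.8%) and in 13.2% of the promoters of all kept genes. The CCAAT box, also on either strand, was present in 34 of 44 mitosis promoters (77.3%), 20 of 32 replication promoters (62.5%) and 39.2% of all. A match describes the letters in this window and does not show that a factor binds there. The promoters below belong to the 3 mitosis genes with the most negative length-adjusted differences among those that hold the element, which is in capitals. They show where it lies relative to the start, which is base 251 of each sequence.
Cdk1 (chr10:69352863-69353162, minus strand): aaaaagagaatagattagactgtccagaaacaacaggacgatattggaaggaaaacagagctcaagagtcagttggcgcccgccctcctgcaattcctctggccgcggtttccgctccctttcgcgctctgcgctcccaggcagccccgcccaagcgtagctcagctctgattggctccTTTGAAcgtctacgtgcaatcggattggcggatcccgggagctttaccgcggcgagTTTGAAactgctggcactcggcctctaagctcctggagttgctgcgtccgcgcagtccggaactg
Kif22 (chr7:127042371-127042670, minus strand): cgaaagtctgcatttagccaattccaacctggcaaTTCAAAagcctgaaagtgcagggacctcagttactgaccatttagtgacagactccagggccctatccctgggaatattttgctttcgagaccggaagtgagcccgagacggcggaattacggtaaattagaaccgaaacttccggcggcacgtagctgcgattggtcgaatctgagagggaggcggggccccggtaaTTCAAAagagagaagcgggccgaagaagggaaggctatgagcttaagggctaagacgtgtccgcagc
Plk1 (chr7:122159185-122159484, plus strand): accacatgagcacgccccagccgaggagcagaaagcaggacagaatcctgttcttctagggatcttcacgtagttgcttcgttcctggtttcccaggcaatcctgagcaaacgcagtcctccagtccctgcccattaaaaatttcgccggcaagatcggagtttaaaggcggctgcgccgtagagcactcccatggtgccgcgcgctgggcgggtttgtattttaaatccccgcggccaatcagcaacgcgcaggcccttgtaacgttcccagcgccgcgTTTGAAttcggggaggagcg
In the Cdk1 promoter the element began 71 and 15 bases before the start, in that of Kif22 215 and 17 bases before it, and in that of Plk1 30 bases after it.

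Cholesterol is made from acetyl-CoA through the mevalonate pathway, and the genes of its enzymes are switched on together when sterols are scarce. Of 25 genes 24 were kept, and the 24 were below 0 as deposited, with 13 lower and a median of -1.11. After length adjustment 17 were lower, with a median of -1.29. Fdft1, squalene synthase, measured 39.5 FPKM alone and 8.95 in coculture, giving a ratio of 0.227 (0.206 to 0.249). The cyclase gene Lss, at a length of 10787 bases, had 6.19 and 2.41. In the pair with QNZ the list was less low, with 8 genes lower and a median of -0.77, and Fdft1 had 50.4 and 21.5 FPKM. The CCAAT box was present in 15 of 17 promoters of this list (88.2%), against 39.2% of all. Genes of fatty acid synthesis had a median of -0.20 as deposited, -0.61 length-adjusted and 0.31 as TPM. The desaturase gene Fads2 was lower, by 1.67 on the deposited scale, while Acsl4, which activates long fatty acids, was higher by 1.72.

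The proteasome degrades proteins tagged with ubiquitin, and its subunits are made in fixed proportion. Of 42 subunit genes 40 were kept, all through both libraries, and 32 were lower and 0 higher as deposited, with a median of -1.32. After length adjustment 28 were lower, with a median of -1.22. With QNZ 25 were lower as deposited, with a median of -1.16. Psma7, of the outer ring, measured 147 FPKM alone and 33.2 in coculture, and 104 and 31.9 with QNZ. Psmb1, of the inner ring, had 78.4 and 23.8. Psma2 and Psmd13 had length-adjusted differences of -2.38 and -2.05. Cytosolic chaperones, which fold new proteins, showed 9 of 28 lower as deposited and 13 after adjustment, with a median of -0.92 on both scales. Among them Cct3 and Cct7, subunits of the chaperonin that folds actin and tubulin, had ratios of 0.331 (0.316 to 0.345) and 0.283 (0.272 to 0.294). Cdc37, which brings kinases to the chaperone HSP90, measured 79.8 and 26.7 FPKM at a length of 8194 bases.

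Tubulins build the microtubules and actin with myosin the contractile fibres. Of 17 tubulin genes 14 were kept, and 12 were lower as deposited, with a median of -1.48. After length adjustment 9 were lower and 1 higher, the γ-tubulin gene Tubg2, with a median of -1.38. Tubb6 measured 339 FPKM alone and 75.4 in coculture, and Tuba1c 187 and 40.2. Of 24 kept contractile genes 14 were lower, with a median of -1.14, and 13 after adjustment, with a median of -1.07. The skeletal actin gene Acta1 had 369 and 29.8 FPKM, a ratio of 0.0808 (0.0746 to 0.0873), and 172 and 18.5 with QNZ. Cnn1, a calponin that binds actin filaments, had 188 and 41.5, and the smooth muscle myosin gene Myh11, 7599 bases long, had 9.10 and 3.50. Of 27 genes of actin dynamics 8 were lower, with medians of -0.75 and -0.83 on the 2 scales. Profilin, Pfn1, had 610 and 214 FPKM and the capping protein gene Capzb 209 and 96.7. S100 proteins, annexins and galectins were lower in part, 10 of 20 as deposited and 5 after adjustment. Lgals1, galectin 1, measured 6533 and 1053 FPKM, the highest level of any gene named here, and 3923 and 989 with QNZ. Lgals4 went the other way, with 0 reads alone and 73 in coculture.

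Ribosomal proteins build the machine of translation, and most of their genes are short. Of 79 cytosolic ribosomal protein genes 78 were kept, all of them below 0 as deposited, with 73 lower and a median of -1.66. After adjustment 49 were lower and 0 higher, with a median of -1.14, or -0.84 with length by the longest transcript. Their share of all reads was 11.4% in MEFs alone and 3.48% in cocultured MEFs, and 9.88% and 3.12% with QNZ. Rps3, of the small subunit, measured 688 and 157 FPKM, a ratio of 0.228 (0.223 to 0.233). Rps19, also of the small subunit, had 257 and 74.5. Of 76 mitochondrial ribosomal protein genes 44 were lower as deposited and 36 after adjustment, with medians of -1.17 and -0.94. Mrpl17 and Mrpl15, at 7605 and 8487 bases with longest transcripts of 7300 and 4600, had ratios of 0.262 (0.237 to 0.288) and 0.408 (0.367 to 0.453). Translation factors were divided, with 23 lower and 11 higher, a median of -0.45, and a median of 0.00 as TPM. Eif3i, of the complex that brings the ribosome to mRNA, had 98.0 and 29.1 FPKM. Eif2s3y, the Y-linked copy of an initiation factor subunit, had 2.56 and 9.40. Of 19 cytosolic tRNA synthetases, which load amino acids, 4 were lower as deposited and 8 after adjustment, with a median of -0.44 that was 0.07 as TPM. Of 32 ribosome biogenesis genes 8 were lower and 0 higher, with a median of -0.65. Fbl, fibrillarin, which methylates ribosomal RNA, had 42.8 and 13.8 FPKM.

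The respiratory chain is encoded mostly in the nucleus and in part in mitochondrial DNA, and the genes of the 2 genomes differed in opposite directions. Of 85 nuclear genes 80 were kept. As deposited 70 were lower and 1 higher, Cox4i2, with a median of -1.55. After adjustment 40 were lower and 2 higher, Cox4i2 and Cox6b2, with a median of -1.0, or -0.69 with length by the longest transcript. Cycs, cytochrome c, measured 80.1 FPKM alone and 12.2 in coculture, giving a ratio of 0.152 (0.140 to 0.166), and 62.6 and 14.8 with QNZ. Uqcrc1, of complex III, had 124 and 30.9, and Atp5g1, of the ATP synthase, had 31.0 and 6.54. Of 13 mitochondrially encoded genes 12 were kept, with 7 higher and 1 lower as deposited and a median of 1.14. After adjustment 10 were higher and 0 lower, and the median was 2.06. mt-Cytb, cytochrome b, measured 273 and 749 FPKM, and 665 and 1802 with QNZ. mt-Nd4, of complex I, had 81.7 and 276, and mt-Nd6, encoded on the other strand of the mitochondrial DNA, had 97.8 and 269. The differences of mt-Nd3 and mt-Co3 were -1.01 and -0.96 as deposited and 0.53 and 0.18 after adjustment. The library of MEFs alone with QNZ also had more reads from mitochondrially encoded genes, with a share of 0.580%, than that without QNZ, with 0.291%.

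Cells short of oxygen stabilise hypoxia-inducible factor (HIF), which raises genes for angiogenesis, pH control, removal of mitochondria and HIF's own hydroxylases through a core element, ACGTG or GCGTG. Genes of this response outside glycolysis were higher in cocultured MEFs on both scales. Of 32 listed genes 31 were kept, 29 of them through both libraries. As deposited 21 were higher and 0 lower, and the median was 1.29, and after adjustment 18 were higher, with a median of 1.26. With QNZ 11 were higher as deposited and 1 lower, Higd1a, with a median of 0.66. Ero1l, an oxidase of the endoplasmic reticulum, measured 12.7 FPKM alone and 176 in coculture, giving a ratio of 13.8 (12.9 to 14.7), and 31.4 and 153 with QNZ. The hydroxylase gene Egln3 had 11.9 and 94.5, and 14.4 and 45.1 with QNZ. Vegfa, the main angiogenic factor, had 26.4 and 191, and 53 and 179 with QNZ. Car9, a carbonic anhydrase at the cell surface, had 16 reads alone and 227 in coculture, giving a ratio of 14.7 (8.86 to 26.2). Ndufa4l2 and Cox4i2, which encode alternative subunits of the respiratory chain, had 9.90 and 57.0, and 7.58 and 24.7 FPKM, although both genes are among the shortest in the list, at 1095 and 788 bases. In each of the 6 genes both cocultured libraries were above both libraries of MEFs alone. Higd1a and Fam162a, which encode small mitochondrial proteins, were below 0 as deposited, with -0.61 and -0.49.

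The core element of HIF, ACGTG or GCGTG on either strand, was present in 18 of 21 promoters of this list (85.7%), in 16 of 22 promoters of glycolysis genes (72.7%) and in 64.9% of all kept genes. The form ACGTG alone was present in 12 of 21, 11 of 22 and 26.6% of these promoters, and the form GCGTG in 15 of 21, 11 of 22 and 53.3%. The promoters below belong to the 3 listed genes with the largest length-adjusted differences among those that hold a core, which is in capitals, and the start is again base 251. They show that single and repeated copies occur.
Egln3 (chr12:54203825-54204124, minus strand): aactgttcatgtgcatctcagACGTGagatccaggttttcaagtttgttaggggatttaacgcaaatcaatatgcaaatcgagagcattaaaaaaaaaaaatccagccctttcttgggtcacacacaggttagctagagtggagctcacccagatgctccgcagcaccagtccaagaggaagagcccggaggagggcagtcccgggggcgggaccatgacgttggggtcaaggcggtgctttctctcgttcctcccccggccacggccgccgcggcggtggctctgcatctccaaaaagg
Car9 (chr4:43506776-43507075, plus strand): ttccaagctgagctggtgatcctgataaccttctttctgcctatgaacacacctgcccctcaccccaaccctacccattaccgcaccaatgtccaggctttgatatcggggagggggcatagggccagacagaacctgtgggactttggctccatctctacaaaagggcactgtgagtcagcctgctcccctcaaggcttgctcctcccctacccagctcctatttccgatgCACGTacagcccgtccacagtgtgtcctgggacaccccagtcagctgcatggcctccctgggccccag
Wsb1 (chr11:79254646-79254945, minus strand): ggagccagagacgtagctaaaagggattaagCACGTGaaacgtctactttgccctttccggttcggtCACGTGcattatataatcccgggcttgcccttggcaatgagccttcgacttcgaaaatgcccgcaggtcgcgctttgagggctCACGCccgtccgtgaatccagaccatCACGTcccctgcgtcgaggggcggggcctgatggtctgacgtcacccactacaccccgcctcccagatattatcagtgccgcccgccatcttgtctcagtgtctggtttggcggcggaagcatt
The Egln3 promoter held 1 copy, beginning 229 bases before the start, and that of Car9 held 1, beginning 18 bases before it. That of Wsb1, which encodes a ubiquitin ligase adaptor, held 4 marked stretches, beginning between 219 and 74 bases before it, and these count as 6 matches because CACGTG holds the core on both strands. The gene itself measured 12.5 FPKM alone and 93.3 in coculture, with a difference of 2.81, and of 2.02 with QNZ.

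Glycolysis genes, which HIF also regulates, did not share a direction. Of 23 genes 7 were higher and 2 lower as deposited, with a median of 0.19 that was -0.46 after length adjustment, -0.35 with median-of-ratios scaling and -0.10 with QNZ. The 2 lower genes were Tpi1 and Ldha. Tpi1, triosephosphate isomerase, measured 596 FPKM alone and 231 in coculture, and Ldha, which makes lactate, 977 and 425. The glucose transporter gene Slc2a3 went from 20 reads to 423, and the enolase gene Eno2 had 3.01 and 12 FPKM. Glycogen genes had medians of 0.80 and 0.37 on the 2 scales. The branching enzyme gene Gbe1 had 1.47 and 10.6 FPKM, but 3.47 and 5.64 with QNZ, and Ppp1r3b, which directs a phosphatase to glycogen, had 1.0 and 6.89.

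Acute phase proteins are secreted effectors of innate defence that inflammatory cytokines induce, and fibroblasts are among the cells that make them. Of 24 listed genes 18 were kept, 15 of them through both libraries, and the 18 were above 0 as deposited, with 12 higher and a median of 1.57. After adjustment 14 were higher and 0 lower, and the median was 1.68. With QNZ 13 were higher as deposited, with a median of 1.96. Nos2, the inducible nitric oxide synthase, measured 2.19 FPKM alone and 59.3 in coculture, giving a ratio of 27.0 (22.9 to 32.1), and 1.62 and 20.2 with QNZ. Lcn2, which binds bacterial iron carriers, had 5.32 and 79.5, and 4.86 and 89.5 with QNZ. Ptx3, a soluble pattern receptor, had 12.9 and 84.0. Of 21 complement genes 11 were kept, 9 of them through both libraries, with 7 higher and a median of 1.46, and 6 higher and a median of 1.51 after adjustment. C3, the component on which the pathways meet, had 4.67 and 50.4 FPKM, and 3.08 and 32.9 with QNZ. C1s1 and C1ra, proteases of the classical pathway, had 4.40 and 30.4, and 8.43 and 31.1. Cfp, properdin, had 5 reads alone and 93 in coculture.

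Most interleukins were too low to be kept. Of 46 interleukins and related cytokines 17 were kept, 12 of them through both libraries, with 6 higher and 0 lower, a median of 0.61 and a length-adjusted median of 1.12. Il6 measured 8.45 FPKM alone and 27.9 in coculture, and 5.17 and 14.5 with QNZ. Il1a had 1.32 and 6.81. Il1b, an inflammatory cytokine of macrophages above all, had 6 reads alone and 57 in coculture, giving a ratio of 9.84 (4.25 to 27.9). Of 39 chemokines 23 were kept, with 7 higher and 6 lower and a median of 0.27 that was -0.11 with median-of-ratios scaling. After adjustment 8 were higher and 3 lower. The neutrophil attractants Cxcl1 and Cxcl2 had 31.8 and 68.2, and 1.79 and 6.60 FPKM, and Ccl20, which attracts cells through CCR6, had 4.38 and 15.8. Cxcl9 went the other way, with 194 reads alone and 21 in coculture, giving a ratio of 0.112 (0.0679 to 0.176). Of 17 kept NF-κB subunits and feedback regulators 5 were higher, with a median of 0.87, and 2 after adjustment, with 0.44. Both counts were near the shares over all genes, 24.5% and 11.6%. Nfkbia, the inhibitor that the factor induces against itself, had 33.4 and 100 FPKM, and 34.8 and 82.4 in the libraries with QNZ. Beside these lists, the kept macrophage markers Lyz2, Cd68 and Cd14 had 1.82 and 6.28, 1.5 and 5.24, and 4.42 and 3.73 FPKM, and their part in the results was not tested.

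Interferon-stimulated genes and the class I antigen pathway were lower without QNZ, with medians that changed sign elsewhere. Of 46 interferon-stimulated genes, all kept, 15 were lower and 3 higher, Stat2, Gbp7 and Samd9l, with a median of -0.26 that was 0.25 as TPM and 0.30 in the pair with QNZ. After adjustment 13 were lower and 0 higher, with a median of -0.55. Oas1a, a sensor of viral RNA, measured 153 FPKM alone and 34.2 in coculture, and 57.9 and 32.3 with QNZ. Zbp1, a sensor of Z-form nucleic acids, had 63.1 and 18.6, and 11.6 and 11.8 with QNZ. The GTPase gene Irgm1 had 99.3 and 38.7. The library of MEFs alone without QNZ thus stood above the other 3 for Oas1a, Zbp1 and Irgm1. Of 22 class I genes 7 were lower and 2 higher, H2-Q6 and Nlrc5, with a median of -0.33 that was 0.17 as TPM and 0.13 with QNZ. Psmb8 and Psmb10, subunits of the immunoproteasome, had 20.9 and 4.81, and 50.1 and 8.08 FPKM. H2-T22 had 392 and 87.5, whereas H2-Q6 had 16.4 and 44.8.

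Extracellular matrix genes differed by class. Small leucine-rich proteoglycans, which bind collagen fibrils and growth factors, were higher on both scales: of 12 genes 8 were kept, 7 of them through both libraries, with 6 higher and a median of 2.07, and 5 higher and a median of 2.04 after adjustment. Prelp measured 2.17 FPKM alone and 23.6 in coculture, giving a ratio of 10.9 (9.02 to 13.2), and 1.75 and 16.3 with QNZ. Fmod, fibromodulin, had 3.53 and 18.7, and the related Aspn and Ogn had 2.18 and 15.9, and 1.95 and 11.1. Collagens are long genes. Of 44 genes 27 were kept, 20 of them through both libraries, and the 15 higher as deposited became 4 after adjustment, with medians of 1.02 and 0.42. The 4 were Col8a2, Col5a3, Col12a1 and Col24a1, and Col12a1, a collagen on the surface of fibrils, had 52.5 and 283 FPKM, a ratio of 5.39 (5.29 to 5.50). Laminins and their partners behaved alike, with 10 of 14 higher and then 2, Nid1 and Smoc1. The count after adjustment was near the share over all genes, 11.6%. Nid1, which links laminin to collagen IV, had 46.1 and 202 FPKM. Matrix metalloproteinases had 7 of 13 higher, and 6 after adjustment, with medians of 1.30 and 0.61. Over the 11 kept through both libraries the deposited median was 0.89. The collagenase Mmp13 had 2.57 and 36.8 FPKM, and the stromelysins Mmp3 and Mmp10 had 41.6 and 116, and 11 and 41.5.

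BMPs signal through receptors and SMAD proteins to the Id genes, and secreted antagonists hold the ligands back. Of 19 antagonists 16 were kept, 13 of them through both libraries, with 9 higher and 0 lower and a median of 1.24. After adjustment 7 were higher and 1 lower, the decoy receptor gene Bambi, with a median of 0.92. With QNZ 5 were higher as deposited, with a median of 0.60. Smad6, an inhibitory SMAD, measured 3.18 FPKM alone and 19.4 in coculture, and 4.92 and 13.7 with QNZ. Of 21 kept receptors and targets 13 were higher, and 8 after adjustment, with medians of 1.28 and 0.81. Id2 and Id4, which block differentiation factors by binding them, had 5.00 and 41.9, and 2.87 and 16.5 FPKM. Smad9, a SMAD of the BMP branch, had 21 reads alone and 380 in coculture. Ligands were fewer, with 2 of 10 higher on both scales, the inhibin chains Inha and Inhba. The ligand list had a deposited median of 0.62, and of 0.22 over the 7 genes kept through both libraries. Inha is 1475 bases long and had 11 and 254 reads, a ratio of 23.9 (13.1 to 48.5), and Inhba had 31.8 and 117 FPKM.

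Other secreted growth signals were also higher. Of 36 fibroblast growth factor (FGF) ligands, receptors and regulators 17 were kept, with 8 higher and a median of 0.92, and 7 higher and a median of 0.82 after adjustment. Fgf10 and Fgf7, which act from mesenchyme on epithelium, had 4.89 and 29.3, and 35.7 and 139 FPKM. In the VEGF and PDGF families 7 of 18 were higher, and 3 after adjustment, namely Vegfa, Pgf and Angptl6. Pgf, placental growth factor, had 2.71 and 41.4 FPKM, and 3.60 and 18.0 with QNZ, while Angptl6 had 0.656 and 3.36, and 6.89 and 6.34 with QNZ. Igfbp3, a carrier of insulin-like growth factors, had 2.59 and 18.6, and the list of this system had medians of 0.98 and 0.51. Of 16 stromal niche factors, which support blood stem cells, 13 were kept, with 6 higher and a median of 0.90, and 5 higher and a median of 0.74 after adjustment. Ptn, pleiotrophin, had 11.2 and 152 FPKM, and 2.77 and 76.7 with QNZ, and Kitl, stem cell factor, had 48 reads alone and 369 in coculture. Bone marrow stromal cell markers, a list that shares genes with these, had a summed FPKM of 635 alone and 1242 in coculture. Grem1 alone held 60.0 and 717 of these sums, so the sum rose through this member. Of the 12 kept markers 6 were higher, with a median of 1.07. After adjustment 4 were higher and 1 lower, Nes, with a median of 0.49. How far cells or RNA of the MSC side contributed was not tested.

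Lists of developmental signals and lineage genes also had medians above 0. Some members passed the filter in 1 library only, which can shift a median. Over members kept through both libraries the deposited medians were 1.32 for Notch (11 genes) and 0.92 for semaphorins (15 genes). They were 0.61 for ephrins (12 genes) and 1.22 for adipocyte genes (2 genes). In the Notch pathway 7 of 14 were higher and 4 after adjustment, with medians of 1.11 and 0.51, and Dlk1, a ligand-like protein of preadipocytes, had 3.60 and 51.5 FPKM. Semaphorins and their receptors had medians of 0.97 and 0.45, with 11 of 22 higher and then 2, Sema3c and Nrp2. The count after adjustment did not exceed the share over all genes, 11.6%. Of 15 ephrins and Eph receptors 3 were higher on both scales, Efna1, Efna5 and Epha4, and Epha4 had 59 and 770 reads. Of 6 kept secreted Wnt antagonists Sfrp2 and Sfrp1 were higher, and Sfrp2 after adjustment, with 0.693 and 4.18, and 5.28 and 14.1 FPKM. Of 16 osteoblast genes 6 were kept, 3 of them through both libraries, with medians of 1.12 and 0.64. Sp7, a master factor of osteoblasts, had 9 reads alone and 178 in coculture, giving a ratio of 20.5 (10.6 to 45.5), and Spp1, osteopontin, had 296 and 596 FPKM. Of 5 kept adipocyte genes 3 were higher and then 1, Pparg, with 30 and 126 reads. The retinoic acid pathway had medians of 0.86 and 0.62. Its members Dhrs3 and Cyp26b1, which remove the signal or its precursor, had 1.40 and 16.8, and 1.70 and 14.8 FPKM, while the binding protein Crabp1 went the other way.

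Transcription regulators included families of very different length. Of 39 Hox genes, which give cells their position along the body, 25 were kept, and the 6 higher as deposited became 10 after adjustment, with medians of 0.71 and 0.65. Hoxa6 had 14 reads alone and 107 in coculture, and Hoxc4 3.61 and 10.3 FPKM. Of 392 zinc finger genes with Zfp names 300 were kept, but only 157 of them through both libraries. As deposited 156 were higher and 1 lower, and the median was 1.04, or 0.89 over the 157, and after adjustment 99 were higher and 3 lower, Zfp277, Zfp622 and Zfp771, with a median of 0.67. Zfp760 had 26 reads alone and 546 in coculture, giving a ratio of 21.8 (14.7 to 33.6), and Zfp771 was lower on both scales, with 37.5 and 11.2 FPKM. The list of histone demethylases and KMT2 methyltransferases, with a median length of 9656 bases, had 20 of 34 higher and then 10, with medians of 1.34 and 0.37. Setd3, a listed gene that belongs to neither family, was lower after adjustment. Kdm3a, a HIF target, had 2.23 and 16.7 FPKM. Among immediate early genes, 9 of 28 were higher and 7 after adjustment, with a median of 0.37 that was -0.10 with median-of-ratios scaling, and Klf4 had 12.4 and 67.7. Clock genes had medians of 0.84 and 0.44, and Nr1d2, a repressor of the clock, had 1.39 and 10.5 FPKM.

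Splicing regulators were divided. SR proteins and the CLK kinases that phosphorylate them had 14 of 26 higher, with a median of 1.10, and 9 higher and 1 lower after adjustment, the SR protein gene Srsf3, with 0.52. Clk1, a kinase of SR proteins, measured 1.08 FPKM alone and 13.0 in coculture, and 1.51 and 12.2 with QNZ. Rsrp1, which encodes an arginine and serine rich protein, had 6.98 and 105, and 7.38 and 108 with QNZ, so the pairs were almost alike. The hnRNPs, which often act against SR proteins, had a median of 0.12 that was -0.53 after adjustment and -0.42 with median-of-ratios scaling. Hnrnph1 was higher on both scales, with 18.8 and 60.2 FPKM, and Hnrnpab lower, with 171 and 72.2.

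Stress pathways pointed in several directions. Among targets of ATF4, the factor of amino acid shortage, 9 of 28 were higher as deposited and 9 after adjustment, with a median of 0.52 that was -0.01 with median-of-ratios scaling. Vldlr, a lipoprotein receptor, had 1.26 and 16.7 FPKM, and the pseudokinase gene Trib3 had 17.1 and 46.3, but 73.3 and 68.8 with QNZ. The serine synthesis genes Phgdh and Psat1 went the other way, with 222 and 83.7, and 97.4 and 42.2. NRF2 targets, for defence against oxidants, had 9 of 28 lower and 2 higher, Gclc and Abcc1, as deposited, with a median of -0.57. After length adjustment 4 were lower and 2 higher, with a median of -0.36, or -0.18 with length by the longest transcript. The count lower after adjustment was near the share over all genes, 11.2%. Prdx1, a peroxidase, had 299 and 87.9 FPKM and the pentose pathway gene Tkt, 7355 bases long, 66.7 and 27.3, while Gclc, which starts glutathione synthesis, had 4.55 and 16.5. Chaperones of the endoplasmic reticulum had a median of -0.34 that was 0.18 as TPM and 0.02 with QNZ, with Calr at 638 and 307 FPKM and Dnajb9 at 5.75 and 14.5. Genes of COPI, COPII and the translocon had a median of -0.23 that was 0.27 as TPM, and Sec61g, of the translocon, had 50.1 and 9.55. Of 17 subunits of the vacuolar ATPase, the lysosome's proton pump, 1 was lower on both scales, Atp6v0e, with 64.9 and 20.6 FPKM.

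The largest single differences were taken among genes at an FPKM of at least 5 in either library that differed by at least 1 on both scales and, in the same direction, with QNZ. The 12 with the largest positive length-adjusted values were Nos2, Lcn2, Inha, Rsrp1, Pgf, Ptn, Mmp13, Selenbp1, Grem1, Ndufa4l2, Rtn4rl2 and Hoxa6, from 3.94 down to 3.24. Grem1 had by far the most reads among them, 3836 alone and 44204 in coculture. Selenbp1, which binds selenium and oxidises methanethiol, measured 1.71 FPKM alone and 22.7 in coculture, and 1.59 and 8.13 with QNZ. Rtn4rl2, a receptor of the Nogo family, had 14 and 206 reads. The most negative values, from -3.17 to -2.49, included those of Akr1b3, Acta1, Mcm5, Cycs, Cdk1, Ube2s, Eef1d, Mrps25, Atp5g1, Tk1 and Lce1h. Akr1b3, aldose reductase, had 38.5 and 6.77 FPKM at a length of 8384 bases, a ratio of 0.176 (0.163 to 0.189), and 26.8 and 7.03 with QNZ. In each of these genes both cocultured libraries lay on the same side of both libraries of MEFs alone. The genes were chosen by both pairs, which favours this.

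**Figure D3:**
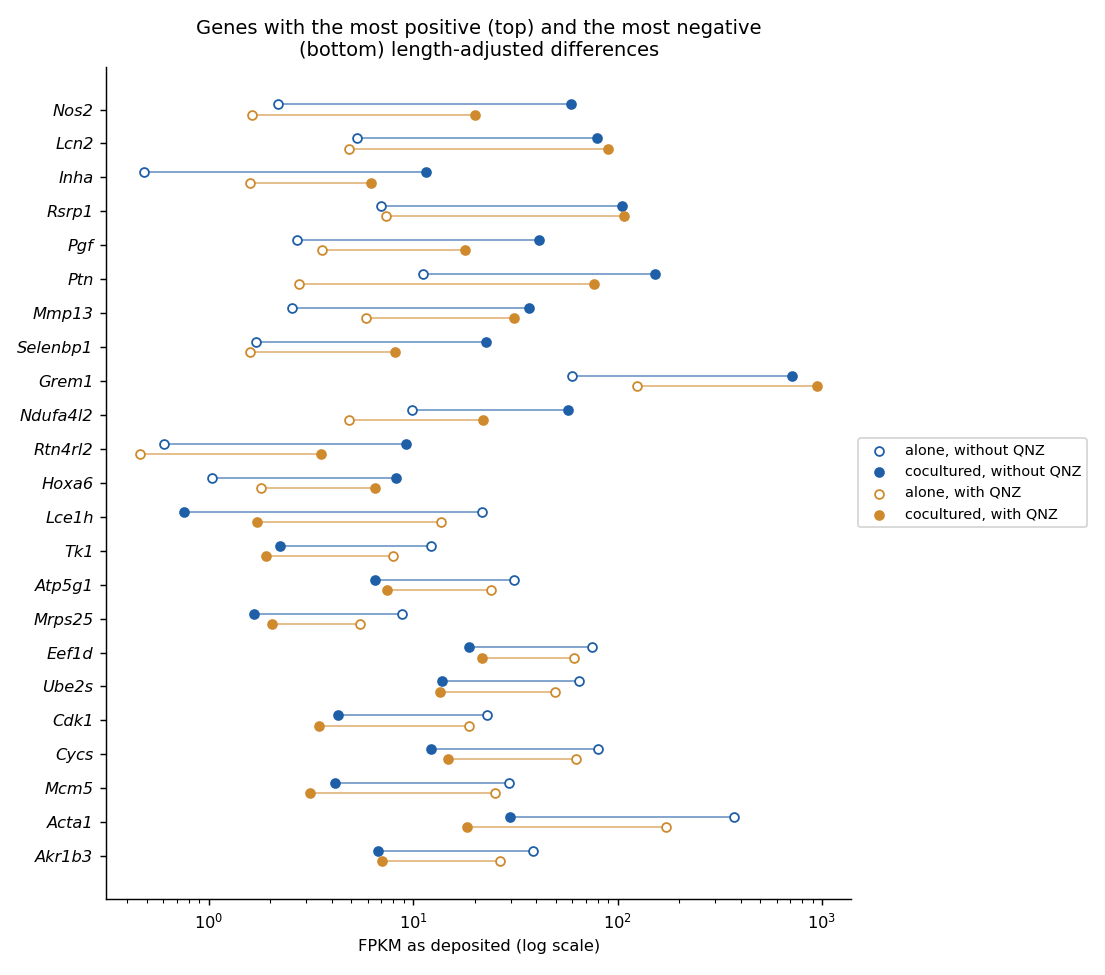
FPKM on a log scale (horizontal axis) of the 12 genes with the largest positive and of 11 genes among those with the most negative length-adjusted differences, in the 4 libraries: open circles are MEFs alone, filled circles cocultured MEFs, blue without QNZ and ochre with QNZ. For each gene both filled circles lie on the same side of both open circles, which the choice of genes by both pairs favours. Nos2 lies at 59.3 and 20.2 in coculture and 2.19 and 1.62 alone.

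Short genes that were higher and long genes that were lower, by the union of their exons, ran against the trend with length. Of 2225 genes up to 2527 bases long, 185 were higher and 713 lower. The 10 with the largest deposited differences among those at an FPKM of at least 5 were Selenbp1, Inha, Prl2c3, Id2, Il13ra2, Rtn4rl2, Sh2d6, Ndufa4l2, Aspn and Car9. Il13ra2, a decoy receptor for interleukin 13, had 10 reads alone and 273 in coculture, giving a ratio of 28.3 (15.1 to 59.6), and 7 and 69 reads with QNZ. Prl2c3, a proliferin, had 1.62 and 18.6 FPKM, but 8.57 and 14.4 with QNZ. Of 2226 genes from 7689 bases, 1106 were higher and 15 lower. The most negative differences, at the same FPKM, included those of Akr1b3, Lars2, Chaf1a, Cdc37, Rrm1, Fkbp5, Dpp3, Dera and Xpnpep1. By their longest transcripts, all of these but Chaf1a (7698 bases) and Cdc37 (7851) fall below 7689 bases, with Lars2 at 3894 and Dera at 2834. Lars2, the mitochondrial leucyl-tRNA synthetase, had 23.5 and 6.78 FPKM, and 14.1 and 7.67 with QNZ. Fkbp5, a cochaperone of steroid receptors that glucocorticoids induce, had 7.08 and 2.30. The peptidase genes Dpp3 and Xpnpep1 had 26.4 and 10.6, and 27.0 and 11.2.

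Paralogs share a function and often a length, so their differences can be set side by side. Of 32 families with at least 2 kept members, 2 held members called in both directions as deposited. Cox4i1, the usual form of a cytochrome oxidase subunit, measured 225 FPKM alone and 59.3 in coculture, and Cox4i2, the form made under low oxygen, 7.58 and 24.7. Among lysyl oxidases, which crosslink collagen, Lox had 192 and 865 and Loxl3 had 122 and 59.6, and with QNZ the difference of Loxl3 was 0.072. In families of glucose use the abundant member was the less high: Eno1 had 793 and 405 FPKM against 3.01 and 12 for Eno2, Aldoa 634 and 353 against 2.31 and 5.48 for Aldoc, and Hk1 30.9 and 35.5 against 7.73 and 22.7 for Hk2. The pyruvate dehydrogenase kinase Pdk4 had 0.961 and 9.98, while Pdk3 had 23.1 and 19.6. Of the HIF hydroxylases, Egln3 differed by 2.89, Egln1 by 0.64 and Egln2 by -0.97. The mitophagy receptors Bnip3 and Bnip3l were higher by 1.31 and 1.39, and by 0.41 and 0.43 with QNZ.

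Further families separated by member as well. Smooth muscle actin, Acta2, had 3113 FPKM alone and 985 in coculture, and cytoplasmic actin, Actb, differed by -0.71. Tpm1 and Tpm2, tropomyosins of the contractile fibre, differed by -1.19 and -1.60 and Tpm4 by -0.50 as deposited, and by -1.82, -1.52 and -0.77 after length adjustment. Among D-type cyclins, which start the cell cycle, Ccnd1 and Ccnd3 differed by -0.73 and -0.94 as deposited and Ccnd2 by 0.86, none past 1, and after length adjustment by -1.11, -1.80 and -0.05. The B-type cyclins Ccnb1 and Ccnb2 differed by -1.43 and -1.44 as deposited, and by -1.69 and -0.81 after adjustment. Topoisomerase 2 comes in a form of dividing cells, Top2a, with differences of -0.49 as deposited and -1.36 length-adjusted, and a form of all cells, Top2b, with 1.93 and 0.74. The 4 SMC subunits of condensin and cohesin, Smc1a, Smc2, Smc3 and Smc4, were above 0 as deposited, with 0.39 to 1.49, and after length adjustment they lay between -0.16 and 0.97, with none past 1. Crabp1 had 3601 FPKM alone and 316 in coculture, and 974 and 380 with QNZ, and its relative Crabp2 had 4.47 and 3.0. Thbs1, a matrix glycoprotein that activates TGF-β, had 861 and 3146 FPKM, and its 284112 reads in coculture were the most of any family member. Mt1, a metallothionein, had 46.3 and 161 FPKM and differed by -0.10 with QNZ. Mt2 had 0 reads in both libraries, which cannot be told apart from a loss in counting. Id1 and Id3 were less high than Id2 and Id4, with 0.92 and 0.26 as deposited.

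**Figure D4:**
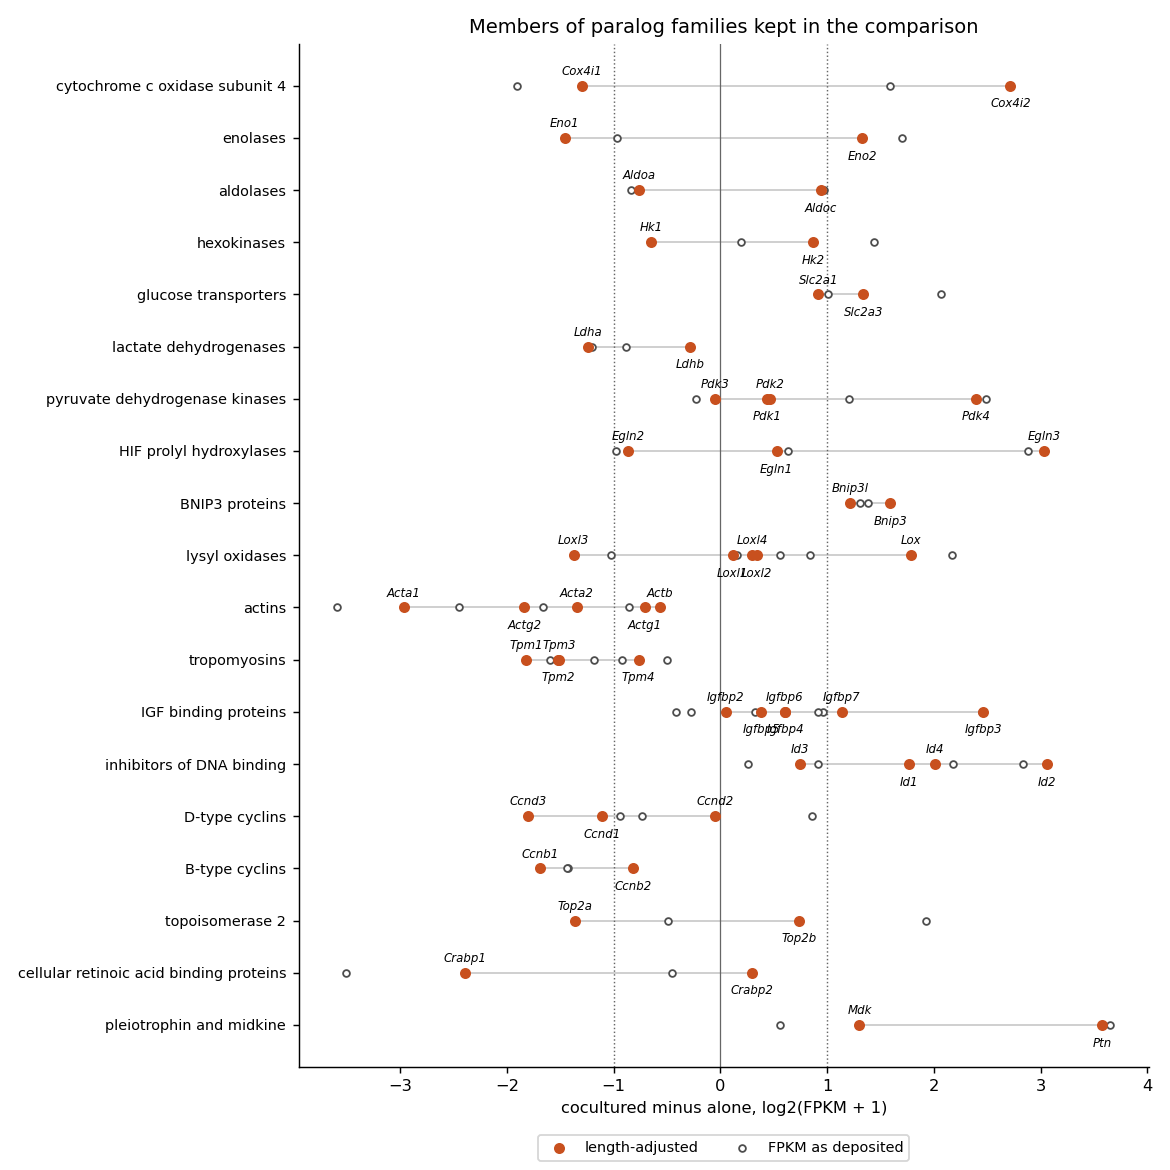
Difference of log2(FPKM + 1), cocultured MEFs minus MEFs alone, for the kept members of paralog families, length-adjusted (filled circles, labelled with the gene) and as deposited (open circles); dotted lines mark 1 and -1. The families of Cox4i1 and Cox4i2, of Lox and Loxl3 and of Crabp1 and Crabp2 spread across 0, with Cox4i1 at -1.29 and Cox4i2 at 2.72 after adjustment.

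The pair with QNZ shares no library with the comparison, but it differs from it by QNZ and is no replicate. Of the 58 lists described, 54 had a deposited median of the same sign in both pairs when each pair was filtered on its own libraries. The exceptions were interferon-stimulated genes, class I antigen presentation, chaperones of the endoplasmic reticulum and glycolysis. These medians are not length-adjusted, and both pairs carried the trend with length, with Spearman's correlations of 0.51 and 0.50. The part of length in the shared signs was not tested. Over the same genes, the hypoxia list had 1.29 without QNZ and 0.66 with it, BMP and TGF-β antagonists 1.24 and 0.60, and the retinoic acid pathway 0.86 and 0.19. Closer values were those of cytosolic ribosomal proteins, -1.66 and -1.65, of complement genes, 1.46 and 1.55, and of collagens, 1.02 and 1.18. Lists further from 0 with QNZ were acute phase genes, with 1.57 and 1.96, and mitosis, with -0.71 and -1.26. No gene that was higher or lower by at least 1 without QNZ was called in the opposite direction with it. The differences between the pairs were not tested, since each arm had 1 library.

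**Figure D5:**
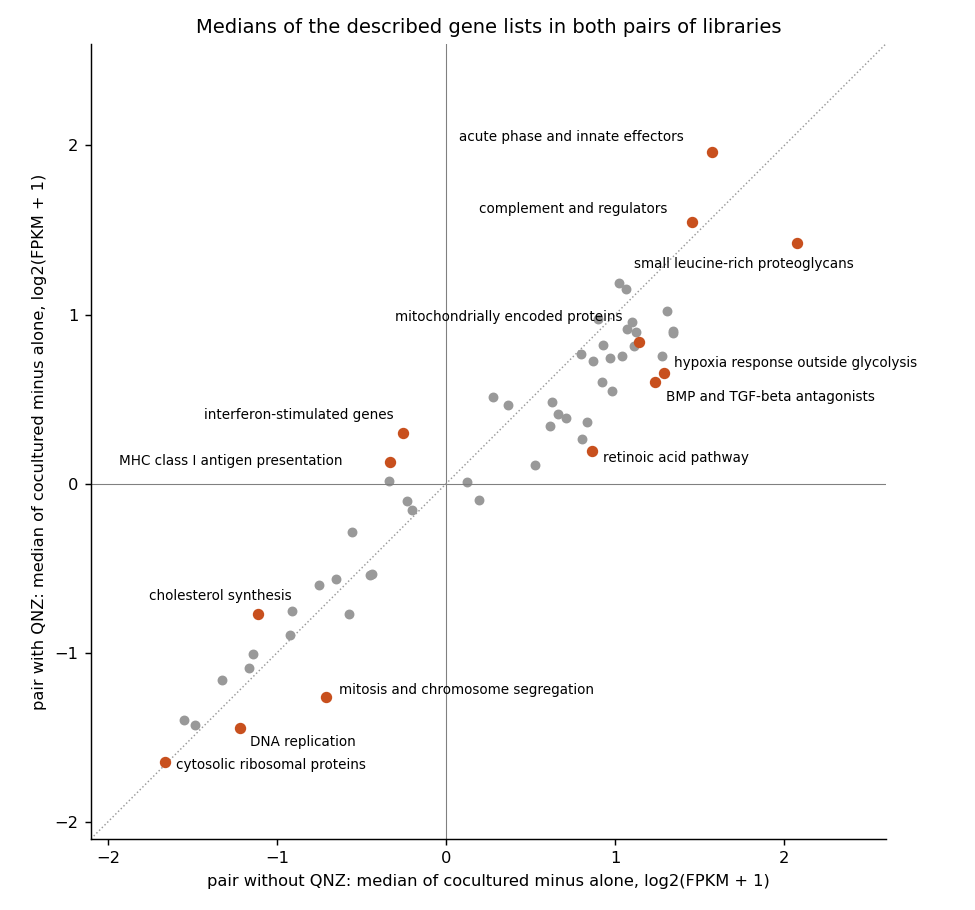
Median difference of log2(FPKM + 1), cocultured MEFs minus MEFs alone, of the 58 described gene lists in the pair without QNZ (horizontal axis) and over the same genes in the pair with QNZ (vertical axis); labelled lists are in orange, and the dotted line marks equal values. Cytosolic ribosomal proteins lie near that line at -1.66 and -1.65, and the hypoxia list lies below it at 1.29 and 0.66. Interferon-stimulated genes lie at -0.26 and 0.30. All medians are as deposited, without length adjustment.

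In other lists the median was above 0 as deposited and nearer to 0 after length adjustment. The kinesins outside mitosis and dyneins, motors of long transcripts, had a median of 0.95 that became 0.07, and the 10 of 22 higher became 2. Integrins went from 0.65 to -0.09, cadherins from 0.64 to 0.08, Wnt ligands and Frizzled receptors from 0.69 to 0.13, and EGF family genes from 0.81 to 0.14. Targets of YAP and TAZ, effectors of the Hippo pathway, went from 0.81 to 0.28, with 8 of 21 higher and then 2. ADAMTS proteases and TIMPs went from 1.06 to 0.29, with 10 of 16 higher and then 3, and p53 targets from 0.77 to 0.29, with 9 of 24 higher and 3 lower and then 7 higher and 0 lower. Imprinted genes went from 0.98 to 0.17, protocadherins from 0.73 to 0.27 and genes of elastic fibres from 0.64 to 0.19. The fibroblast markers themselves, 5 of 10 higher as deposited, had medians of 0.75 and 0.26.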

How the data were processed

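MEFs of 4 cultures, 1 library each, were sequenced after the authors made stranded libraries with dUTP and random primers from 1.3 ug of total RNA. The deposited table holds, for each of 21862 gene IDs, the authors' read counts and FPKM in the 4 libraries and a gene length. The submitters' processing notes name STAR 2.5.4b, Cufflinks 2.2.1, Cuffnorm and the build mm10, and the counting tool, its annotation and its strand setting are not given in the sources used here. The length equals the union of exons in GENCODE M21 for 21681 of 21845 matched IDs, and no FPKM differs from read count, length and library total by more than a relative 1e-06, so the FPKM carry no correction for length or composition beyond the division. No per-sample column was left unmatched (0).

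Gene IDs of one name were summed (23 names), and a gene was kept where its FPKM reached 1 in either library without QNZ. Differences are of log2(FPKM + 1), which understates the change of low genes. For the length-adjusted scale a lowess curve (span 0.3, 3 rounds) of the difference on log10 length was subtracted, and it was tested on simulated data. Ratios of CPM have exact binomial intervals. A gene with 0 reads allows up to 3 reads, or 0.195 to 0.228 CPM over the libraries. With 1 library per condition no test was run. The gene lists (87), paralog families, motifs and members were chosen with earlier results of these data known, so they are no independent evidence. Lists were described where at least 5 members were kept and the length-adjusted median was at least 0.3 from 0. Up to 4 members per list were named by the largest length-adjusted difference in its direction with a deposited difference of at least 1, plus members opposite on both scales. Single genes were the 12 with the largest positive and the 12 with the most negative length-adjusted differences that also differed by at least 1 as deposited and with QNZ, and, ranked by the difference as deposited, the 10 largest in the shortest 20% and the 10 most negative in the longest 20% of genes. All had an FPKM of at least 5 in either library, and predicted genes, unnamed cDNA clones, pseudogenes and small RNAs were left out. Some genes chosen by these rules are not reported here. Paralogs and cell markers could also be named. Pola1, Tubg2, Cox6b2, mt-Nd3, mt-Co3, Higd1a, Fam162a, Stat2, Gbp7, Samd9l, Nlrc5, Bambi, Nes, Zfp277, Zfp622, Setd3, Srsf3 and Abcc1 fell outside this rule and were named after their values were seen. Wsb1 was named for its promoter. Alternatives were a pseudocount of 0.1, an FPKM of at least 5 or no filter, median-of-ratios scaling, TPM, the most read ID per name, the pair with QNZ and a size of 2. Removing length with GC content, length by the longest transcript, and an FPKM of at least 1 in both libraries were added after seeing the data. Columns with gene coordinates served for overlaps, and no columns of the authors' comparisons were used. Computation ran in Python 3.11.15 with statsmodels 0.14.6, scipy 1.17.1, pandas 2.3.3, matplotlib 3.10.9 and numpy 2.4.6.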

Additional observations from a re-analysis of the deposited data

Results flagged for a closer look

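The median difference of the 46 interferon-stimulated genes was -0.26 between cocultured MEFs and MEFs alone without QNZ, and 0.30 over the same genes in the pair with QNZ. It was singled out because the 2 pairs lay on opposite sides of 0. The difference between the pairs was not tested, since each arm held 1 library. Among the genes named, Cmpk2 differed by -1.65 without QNZ and by -0.29 with it, Zbp1 by -1.71 and 0.028, and Oas1a by -2.13 and -0.82. The FPKM of Cmpk2, an enzyme of nucleotide supply, was 30.5 in MEFs alone, 9.03 in cocultured MEFs, 9.70 in MEFs alone with QNZ and 7.72 in cocultured MEFs with QNZ.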

How the results depend on the processing

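The count of genes higher in coculture was 2719 as deposited, and it was 1386 with median-of-ratios scaling, 5190 as TPM, 1295 with the length trend removed, 365 at a size of 2 and 1584 in the pair with QNZ filtered on its own libraries. It was 1125 with the trends of length and GC content removed and 1125 with length taken from the longest transcript. The count of genes lower in coculture was 1252, and 2394 with median-of-ratios scaling, 644 as TPM and 125 at a size of 2. Under the other alternatives the numbers lay between 1859 and 3730 for higher and between 986 and 1461 for lower. Among the 265 named genes and paralogs past 1 as deposited with a value in the pair with QNZ, 6 had the opposite sign there. Their differences with QNZ were -0.10 for Angptl6, 0.40 for Cxcl10, 0.072 for Loxl3, -0.10 for Mt1, -0.091 for Trib3 and 0.028 for Zbp1. The cause was not tested. Of 270 named genes and paralogs past 1 as deposited, 239 stayed past it with the same sign as TPM, 234 with median-of-ratios scaling, 237 with the length trend removed and 223 with the longest transcript. In the pair with QNZ 191 of 265 did. The number of the 58 described lists whose median changed sign was 5 with median-of-ratios scaling, 7 as TPM, 2 with the length trend removed and 4 with QNZ. No paired analysis was possible because each condition had 1 library, and no library could be left out for the same reason. Depth limits low genes most: 34 of the 242 named genes were kept only through the cocultured MEFs.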
